A study of Mus musculus with 8 samples.

Results

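Notch receptors and genes that respond to Notch signalling were followed in mouse blood progenitors that lack Ebf1 and were given back either wild-type EBF1 or the H240A form. The 10 genes are the receptors Notch1, Notch2 and Notch3, the response genes Hes1, Hes5, Hey1, Heyl, Dtx1 and Nrarp, and Ptcra, a T-lineage gene that Notch signalling switches on. They were chosen by name, as every array probe whose gene name is the current symbol or a synonym of a member. This gave 14 of the 41174 probes on the array and 10 of its 27337 genes. Of the 10 genes, 7 have 1 probe, 2 (Notch1 and Heyl) have 2 probes and 1 (Notch2) has 3 probes.

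RNA was read on 8 Agilent arrays of a single colour. All 3 groups were c-Kit+ fetal liver cells of genotype Ebf1-/- on the C57Bl/6 background, so none had a working Ebf1 gene of its own. The cells were kept on OP9 feeder cells, a mouse bone marrow stromal line, with IL-7 at 5 ng/ml and stem cell factor and Flt3 ligand at 10 ng/ml each. They received a pMys retrovirus with an IRES-GFP cassette. The vector held no EBF1 (Empty, n = 2 arrays), wild-type EBF1 (Ebf1wt, n = 3) or EBF1 with alanine in place of a histidine (Ebf1-H240A, n = 3). GFP+ cells were sorted 36 h after transduction. EBF1 was therefore expressed from a retroviral vector, and the signal of the Ebf1 probe was not used to compare its amount between groups. Whether replicates are separate cultures or animals is not in the labels, and the p-values then rest on the spread of these samples alone, which may be technical.

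Notch receptors are single-pass membrane proteins that bind Delta-like or Jagged ligands on a neighbouring cell. Binding lets ADAM proteases and then gamma-secretase cut the receptor, and the freed intracellular domain enters the nucleus, where it joins the DNA-binding protein RBPJ and a Mastermind co-activator. In lymphoid progenitors, Notch1 signalling drives the T-cell fate and opposes the B-cell fate. EBF1 is a transcription factor that B-lineage cells need. The design sets both forms of EBF1 against the empty vector and against each other.

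The promoters of 4 members are shown first. Genes that rose with both forms of EBF1 can so be set beside genes that were not called or not tested. RefSeq promoter sequence of assembly GRCm38.p6 was at hand for 7 of the 10 members, and Hes1, Hey1 and Heyl were not matched. The 250 bases before each annotated start were searched on both strands for CCCNNGGG, the core of the EBF1 site, for TGGGAA, the core of the RBPJ site, and for GTGGGAA, which contains TGGGAA. Of 32851 promoters of the same length, 11.8% held CCCNNGGG, 21.6% held TGGGAA and 5.42% held GTGGGAA. Capitals mark CCCNNGGG, TGGGAA or GTGGGAA, read on either strand, so that TTCCCA is TGGGAA on the other strand. Notch3 (chr17:32166891-32167140, minus strand) and Dtx1 (chr5:120711670-120711919, minus strand) are shown because they rose with both forms. Hes5 (chr4:154960673-154960922, plus strand) and Ptcra (chr17:46763713-46763962, minus strand) are shown because Hes5 was not called and Ptcra, detected on Empty 2 alone, was not tested.
Notch3: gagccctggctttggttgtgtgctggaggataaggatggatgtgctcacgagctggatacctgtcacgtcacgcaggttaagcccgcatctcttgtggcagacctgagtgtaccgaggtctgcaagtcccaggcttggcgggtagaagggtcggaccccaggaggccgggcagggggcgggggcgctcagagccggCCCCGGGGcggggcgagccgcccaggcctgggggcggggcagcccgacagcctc
Dtx1: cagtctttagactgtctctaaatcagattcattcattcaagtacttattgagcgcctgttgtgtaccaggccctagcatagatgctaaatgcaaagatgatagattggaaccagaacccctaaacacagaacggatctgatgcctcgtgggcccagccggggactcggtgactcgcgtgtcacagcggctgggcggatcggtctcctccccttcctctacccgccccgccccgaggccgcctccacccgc
Hes5: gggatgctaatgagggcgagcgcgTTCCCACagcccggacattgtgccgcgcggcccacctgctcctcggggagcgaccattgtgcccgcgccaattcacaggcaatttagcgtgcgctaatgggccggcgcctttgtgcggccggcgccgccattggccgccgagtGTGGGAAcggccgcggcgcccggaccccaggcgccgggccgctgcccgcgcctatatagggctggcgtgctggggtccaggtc
Ptcra: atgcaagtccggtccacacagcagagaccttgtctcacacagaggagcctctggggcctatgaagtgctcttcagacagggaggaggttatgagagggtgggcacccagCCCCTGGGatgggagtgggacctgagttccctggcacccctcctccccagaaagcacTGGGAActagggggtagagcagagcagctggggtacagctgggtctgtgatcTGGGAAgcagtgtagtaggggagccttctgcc

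The Notch3 window held 1 CCCNNGGG match, 54 bases before the start, and the Dtx1 window held no match to any of the 3 motifs. The Hes5 window held 2 GTGGGAA matches, 226 and 83 bases before the start. The Ptcra window held 1 CCCNNGGG match and 2 TGGGAA matches. Of the members not shown, Notch2 had 1 CCCNNGGG match 106 bases before its start, and Notch1 and Nrarp had none of the 3 motifs. A match here is a description of letters and not a bound site.

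Values below are log2 of the processed spot intensity after every array was scaled to the same 75th percentile. A spot is called well above background by a flag of the scanner software, and 54.6% to 59.6% of probes carried it on each array. A gene was tested when a probe of it carried this flag on 2 or more of the 8 arrays, and is represented by its brightest such probe. Differences were tested with limma over 16309 genes, and a gene is called at a Benjamini-Hochberg adjusted p under 0.05. Within a group, pairs of arrays had correlations of 0.991 to 0.995 across genes, which are not independent replicates. All 10 blood progenitor markers, among them Ptprc, Kit and Flt3, passed the filter. Against Empty, 2 rose and 4 fell with Ebf1wt, and 2 rose and 6 fell with Ebf1-H240A. Over all tested genes, 38.4% were called with Ebf1wt and 44.6% with Ebf1-H240A. All 9 tested B-lineage EBF1 target genes rose with Ebf1wt, while with Ebf1-H240A 6 rose, 1 fell with 2 left uncalled. Pax5, also on that list, was well above background on 0 arrays and was not tested. The same Empty arrays serve both comparisons with Empty.

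Of the 10 members, 8 were tested, on 12 of the 14 probes. With Ebf1wt, 6 of the 8 rose against Empty (Notch1, Notch3, Dtx1, Nrarp, Heyl and Hes1), 0 fell and 2 did not pass (Notch2 and Hes5). Over all tested genes, 38.4% were called in this comparison, 17.2% higher and 21.3% lower. With Ebf1-H240A, 5 rose (Notch1, Notch3, Dtx1, Nrarp and Heyl), 0 fell and 3 did not pass. The share of all genes called there was 44.6%, with 21.6% higher and 23% lower. The members' median log2 difference was 1.41 with Ebf1wt and 1.18 with Ebf1-H240A, against -0.04 and -0.00 over all genes. Heyl passed the filter only through the 6 arrays with an Ebf1 vector, so its entry among the tested members depends on its high level there. Nrarp and Hes1 carried the flag on Empty 2 but not on Empty 1, so their entry also needed arrays with an Ebf1 vector. For Heyl, Nrarp and Hes1 the calls against Empty are therefore no independent support for a difference. Between the forms, Notch2 and Heyl were higher with Ebf1-H240A and 6 did not pass, where 6.36% of all genes were called, 3.64% higher and 2.72% lower. In these bulk samples, fewer cells of a type and less RNA per cell cannot be told apart.

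**Figure D1:**
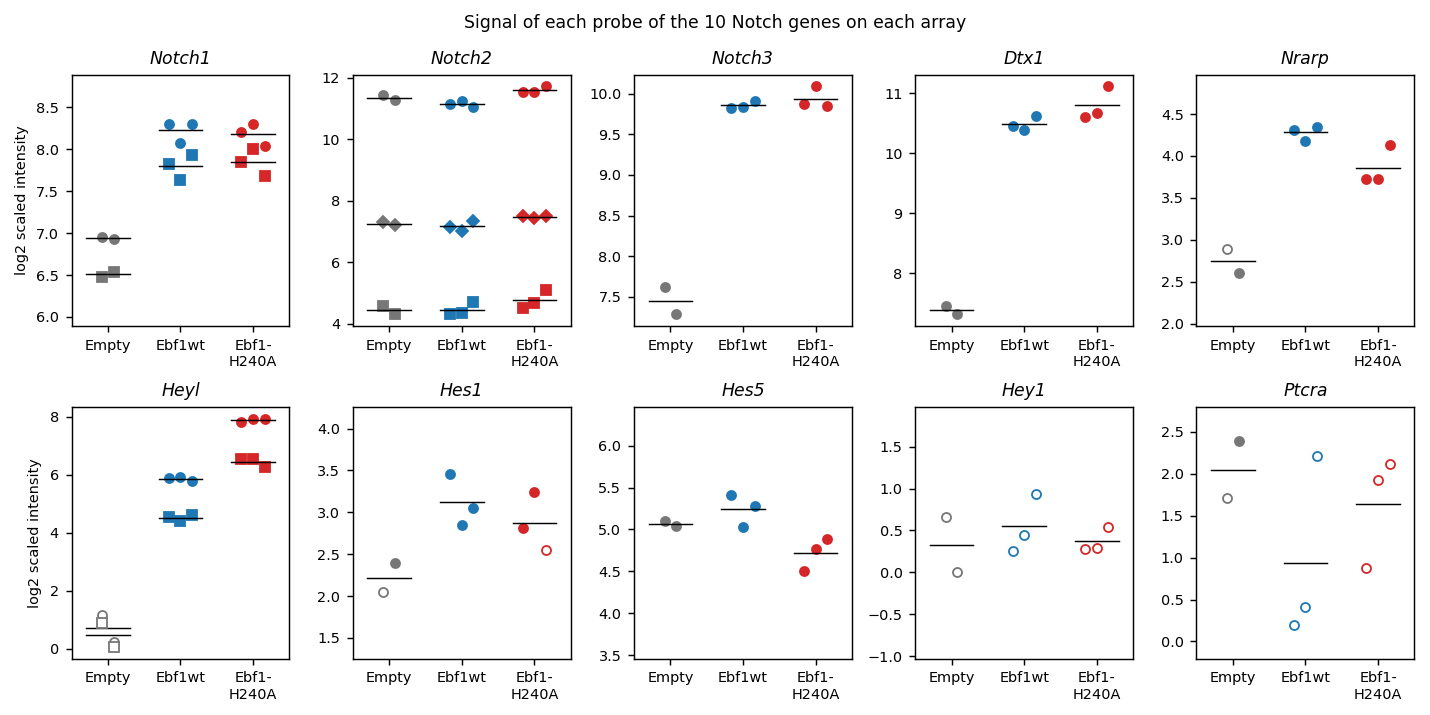
Each panel plots the log2 scaled intensity of 1 member on the 8 arrays, by group, with a line at each probe's group mean; each marker shape is a different probe of the gene, and open markers are arrays on which the probe was not well above background. Notch1, Notch3, Dtx1, Nrarp, Heyl and Hes1 sit higher on the 6 arrays with an Ebf1 vector than on both Empty arrays. Arrays did not overlap Empty for 61.3% of all tested genes with Ebf1wt and for 65.5% with Ebf1-H240A. Heyl shows the widest gap between its Ebf1wt and Ebf1-H240A arrays.

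Among the receptors, Notch1 and Notch3 were higher with both forms of EBF1, and Notch2 was not called against Empty. Notch1 is the receptor that sets T-cell fate in early lymphoid cells. Its brighter probe (chromosome 2, 26314772 to 26314830, mm9) is printed 10 times on the array, and those spots varied by an SD of 0.03 to 0.11 on each array. The log2 levels of Notch1 were 6.95 and 6.93 with Empty and 8.30, 8.08 and 8.31 with Ebf1wt, while Ebf1-H240A gave 8.20, 8.31 and 8.04. Both Empty arrays lay below every other array, and the arrays of both EBF1 forms were interleaved.

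Notch1 rose by 1.29 ± 0.11 with Ebf1wt (SE, n = 3 and 2, limma adjusted p = 0.00017), which is 2.44-fold. With Ebf1-H240A it rose by 1.24 ± 0.11 (limma adjusted p = 0.000164), which is 2.36-fold. Arrays of the 2 groups did not overlap for 61.3% of all tested genes with Ebf1wt and for 65.5% with Ebf1-H240A. The difference of Notch1 between the forms was -0.05 ± 0.09 (95% interval -0.27 to 0.18, limma adjusted p = 0.824). The second Notch1 probe, next to the first on the chromosome (26314830 to 26314889), gave 1.29 ± 0.12 and 1.34 ± 0.12.

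Notch3 is the receptor best known from vascular smooth muscle and pericytes, and it also acts in immature T cells. Its levels (chromosome 17, 32257848 to 32257907, mm9) were 7.62 and 7.28 with Empty and 9.83, 9.84 and 9.91 with Ebf1wt, while Ebf1-H240A gave 9.87, 10.10 and 9.85. The 6 arrays with an Ebf1 vector spanned a narrow range, more than 2 log2 units above the Empty arrays. Notch3 rose 5.30-fold with Ebf1wt (2.40 ± 0.12, limma adjusted p = 2.08e-05) and 5.60-fold with Ebf1-H240A (2.49 ± 0.12, limma adjusted p = 1.41e-05). Between the forms the difference was 0.08 ± 0.11 (95% interval -0.18 to 0.34, limma adjusted p = 0.722).

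Notch2, the receptor that marginal zone B cells depend on, read 11.44 and 11.28 with Empty and 11.14, 11.24 and 11.06 with Ebf1wt, while Ebf1-H240A gave 11.53, 11.55 and 11.74. These are from its brightest probe (chromosome 3, 97953914 to 97953973, mm9). The order of the group means was Ebf1-H240A, Empty, Ebf1wt, and no neighbouring pair in that order was called. The difference from Empty was -0.21 ± 0.10 with Ebf1wt (limma adjusted p = 0.126) and 0.25 ± 0.10 with Ebf1-H240A (limma adjusted p = 0.0762). The ends of the order were called, with Ebf1-H240A 0.46 ± 0.09 above Ebf1wt (n = 3 and 3, limma adjusted p = 0.0281), or 1.38-fold.

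That call of Notch2 rests on 1 of its 3 probes. The other probes, at 97952843 to 97952902 and 97951205 to 97951264, gave 0.32 ± 0.09 and 0.31 ± 0.18 and were not called (limma adjusted p = 0.101 and 0.372 over probes). With the slide as a block the difference was 0.45 (limma adjusted p = 0.0662). Leaving out any single Ebf1wt or Ebf1-H240A array also lost the call, with differences from 0.40 to 0.51.

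The genes that respond to Notch fall into feedback regulators and transcriptional repressors. Dtx1 and Nrarp belong to the first kind. Dtx1 (Deltex), a ubiquitin ligase that binds the intracellular domain of Notch, read 7.45 and 7.31 with Empty and 10.45, 10.39 and 10.62 with Ebf1wt, while Ebf1-H240A gave 10.61, 10.68 and 11.13 (chromosome 5, 121130278 to 121130337, mm9). The groups with and without EBF1 were far apart, and Ebf1-H240A 3 was the highest array. Dtx1 rose 8.61-fold with Ebf1wt (3.11 ± 0.16, limma adjusted p = 2.5e-05) and 10.7-fold with Ebf1-H240A (3.42 ± 0.16, limma adjusted p = 1.32e-05). Between the forms it differed by 0.32 ± 0.15, with a 95% interval from -0.03 to 0.66 (limma adjusted p = 0.26).

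Nrarp encodes an ankyrin-repeat protein that Notch induces and that destabilises the Notch transcription complex. Its probe (chromosome 2, 25038038 to 25038097, mm9) was dim, and on Empty 1 it was not well above background. Its levels were 2.89 and 2.60 with Empty and 4.31, 4.18 and 4.35 with Ebf1wt, while Ebf1-H240A gave 3.72, 3.72 and 4.13. The Ebf1-H240A arrays lay between the other groups, with no overlap on either side. Over all tested genes, arrays did not overlap Empty for 61.3% with Ebf1wt and for 65.5% with Ebf1-H240A. Nrarp rose by 1.54 ± 0.15 with Ebf1wt (limma adjusted p = 0.000403) and by 1.12 ± 0.15 with Ebf1-H240A (limma adjusted p = 0.00129). It passed the filter only with the help of arrays with an Ebf1 vector, so these p-values are no independent support for the difference. The difference between the forms was -0.42 ± 0.14 and was not called (limma adjusted p = 0.125), though Ebf1-H240A and Ebf1wt arrays did not overlap, which held for 29.9% of all genes. The size of the rise depended on how dim signals were treated. With intensities floored at 16 in place of 1, the difference was 0.28 with Ebf1wt, which was called, and 0.04 with Ebf1-H240A, which was not (limma adjusted p = 0.681). With normexp background correction the differences were 0.36 and 0.35, and they were 0.60 and 0.51 in the deposited table, all called.

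Among the repressors, Heyl rose with both forms and was the member with the largest difference between them. Heyl is a basic helix-loop-helix repressor of the Hey family. Its brighter probe (chromosome 4, 122926975 to 122927034, mm9) read 1.18 and 0.23 with Empty and lacked the background flag on both arrays. It read 5.90, 5.91 and 5.80 with Ebf1wt, while Ebf1-H240A gave 7.81, 7.91 and 7.93. The arrays formed 3 separate levels with little spread within the groups that had EBF1. Groups did not overlap for 61.3% (Ebf1wt and Empty), 65.5% (Ebf1-H240A and Empty) and 29.9% (both forms) of all tested genes.

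Because Empty has no measured level of Heyl, only a bound can be given. The mean of the bright group was set against the lowest signal well above background on each Empty array, which exceeded the probe's own. That lowest signal was taken as the level of Empty, although a probe without the flag can read above it. On this rule Heyl was at least 10.4-fold higher with Ebf1wt and at least 42.1-fold higher with Ebf1-H240A. The limma adjusted p of 1.65e-05 and 4.1e-06 belong to the fitted log2 differences, 5.16 and 7.18, and not to the bounds. Heyl entered this test through the 6 arrays on which it was high, so these p-values are no independent support for the difference from Empty. The fitted differences from Empty depended on how dim signals were treated. They were 1.03 and 2.31 with normexp, 1.87 and 3.88 with intensities floored at 16, and 2.14 and 3.85 in the deposited table, all below the log2 bounds of 3.38 and 5.4, which hold for the scaling used here. Between the forms both groups were measured, and Heyl was 2.01 ± 0.22 higher with Ebf1-H240A (n = 3 and 3, limma adjusted p = 0.00545), or 4.04-fold. With normexp that difference was 1.28, and it was called. The second probe (122925488 to 122925547) read 0.87 and 0.05 with Empty and 4.53, 4.40 and 4.61 with Ebf1wt, while Ebf1-H240A gave 6.53, 6.55 and 6.25. On it Heyl was at least 4.08-fold and at least 15.6-fold higher than with Empty, and the forms differed by 1.93 ± 0.21 (limma adjusted p = 0.00539 over probes).

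Hes1 and Hes5, repressors of the Hes family that are direct Notch targets in many tissues, gave small differences. The Hes1 probe was dim and was not well above background on Empty 1 and Ebf1-H240A 3. It passed the filter only with the help of arrays with an Ebf1 vector, so its p-values against Empty are no independent support for a difference. Hes1 read 2.05 and 2.39 with Empty and 3.46, 2.85 and 3.05 with Ebf1wt, while Ebf1-H240A gave 2.81, 3.24 and 2.55. All arrays with EBF1 lay above both Empty arrays. Arrays did not overlap Empty for 61.3% of all tested genes with Ebf1wt and for 65.5% with Ebf1-H240A. Hes1 rose by 0.90 ± 0.25 with Ebf1wt (limma adjusted p = 0.029), and with Ebf1-H240A it differed by 0.65 ± 0.25 (limma adjusted p = 0.0768). The first call was lost under 11 of 18 other settings, among them when Empty 1, Empty 2, Ebf1wt 1 or Ebf1wt 3 was left out. The differences were then 0.73, 1.07, 0.73 and 0.93, with limma adjusted p of 0.158, 0.0602, 0.0672 and 0.0577. With normexp background correction it was 0.17 (limma adjusted p = 0.284). Without Ebf1-H240A 3 the other difference was 0.81 and was called (limma adjusted p = 0.0497). The Hes1 probe maps to chromosome 16, where its alignment runs over 296 genomic bases from 30065983 to 30066278 (mm9).

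Hes5 was measured on all 8 arrays (chromosome 4, 154336347 to 154336406, mm9). It read 5.10 and 5.04 with Empty and 5.42, 5.03 and 5.28 with Ebf1wt, while Ebf1-H240A gave 4.50, 4.76 and 4.88. Ebf1wt overlapped Empty, and the Ebf1-H240A arrays lay below all others. Ebf1-H240A arrays did not overlap Empty for 65.5% of all tested genes, nor Ebf1wt for 29.9%. The differences were 0.17 ± 0.15 with Ebf1wt (limma adjusted p = 0.412), -0.36 ± 0.15 with Ebf1-H240A (limma adjusted p = 0.0917) and -0.53 ± 0.13 between the forms (limma adjusted p = 0.0661), and none was called. After quantile normalization the differences of Ebf1-H240A from Empty (-0.45, limma adjusted p = 0.0337) and from Ebf1wt (-0.57, limma adjusted p = 0.0428) were called. The latter was also called over genes measured on all arrays (-0.53, limma adjusted p = 0.0374). With normexp background correction they were -0.03 and -0.09, and with the deposited table -0.28 and -0.19, and none of these was called.

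Hey1 and Ptcra could not be tested. Hey1, a relative of Heyl, was well above background on 0 of 8 arrays and read between 0.00 and 0.94 (chromosome 3, 8663432 to 8663491, mm9). Ptcra encodes the pre-T-cell receptor alpha chain, a Notch target of early T cells. Its probe (chromosome 17, 46892945 to 46893005, mm9) was well above background on Empty 2 alone, at 2.39. On the other 7 arrays Ptcra read from 0.20 to 2.21 and was not well above background. On the 6 arrays with an Ebf1 vector, neither gene had a measured signal.

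**Figure D2:**
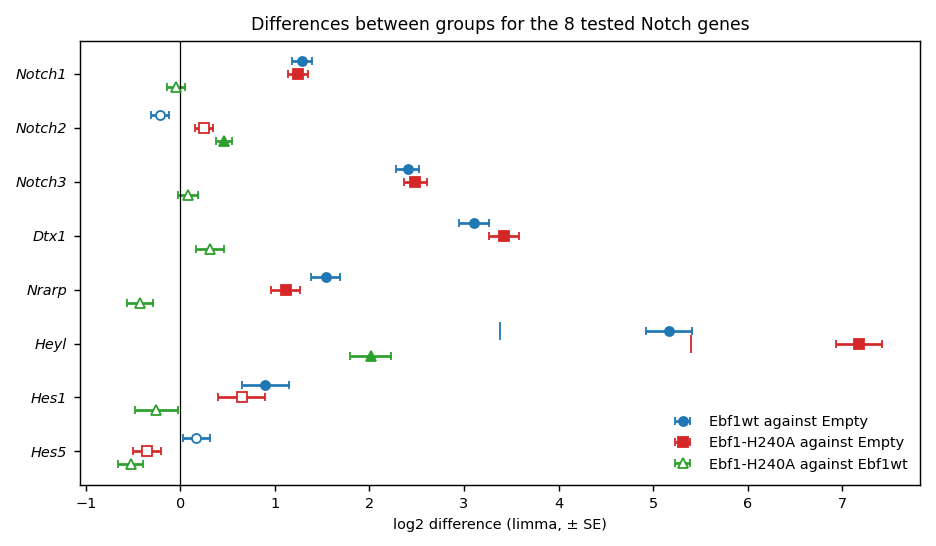
Points are limma log2 differences ± SE for the 8 tested members in the 3 comparisons, filled where called. Vertical ticks in the Heyl row mark the log2 of its lower bounds (3.38 and 5.4). The Heyl points against Empty are still the fitted values (5.16 and 7.18). The bounds are to be read in their place, because Empty was not well above background. Notch1, Notch3 and Dtx1 lie far right of 0 in both comparisons with Empty and near 0 between the forms, where Heyl (2.01) and Notch2 (0.46) are the filled points.

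Each slide held several groups, with Empty 1, Ebf1wt 2, Ebf1-H240A 1 and Ebf1-H240A 2 on slide 1 and the other 4 arrays on slide 2. With the slide as a block, 6 members were called with Ebf1wt, 5 with Ebf1-H240A and 1 (Heyl) between the forms. Within slides 1 and 2, the Ebf1wt difference was 1.13 and 1.37 for Notch1, 2.22 and 2.58 for Notch3, 2.94 and 3.23 for Dtx1, and 1.29 and 1.73 for Nrarp. The Ebf1-H240A difference was 1.30 and 1.11 for Notch1, 2.36 and 2.57 for Notch3, 3.19 and 3.82 for Dtx1, and 0.83 and 1.53 for Nrarp. Between the forms Heyl differed by 1.95 and 2.08 within the slides. Signs were the same on both slides for these genes in the comparisons with Empty. Between the forms, Notch1 differed by 0.17 on slide 1 and by -0.27 on slide 2, and limma called 0 genes within either slide (1526 and 1600 at an unadjusted p under 0.05), where a single group gives the spread.

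Other genes of the Notch pathway went in both directions. The counts of each list stand beside shares over all tested genes. With Ebf1wt 38.4% of all genes were called (17.2% higher, 21.3% lower), and with Ebf1-H240A 44.6% (21.6% higher, 23% lower). Of 8 further receptors and ligands, 6 were tested, and 2 rose, 1 fell and 3 did not pass with either form against Empty. The median difference was 0.01 with Ebf1wt and -0.07 with Ebf1-H240A. Notch4, the remaining receptor, differed by -0.00 and -0.25 and was not called. Dll1, a Delta-like ligand, fell by 0.81 ± 0.09 with Ebf1wt (limma adjusted p = 0.000798), while its difference with Ebf1-H240A was -0.24 ± 0.09 (limma adjusted p = 0.0722). Between the forms Dll1 was 0.56 ± 0.08 higher with Ebf1-H240A (limma adjusted p = 0.0141). Jag2, a Jagged ligand, read 7.52 and 7.47 with Empty and 8.25, 8.29 and 7.70 with Ebf1wt, while Ebf1-H240A gave 8.99, 9.02 and 9.25. The 3 groups of Jag2 formed ascending levels without overlap. Over all tested genes, 61.3% did not overlap between Ebf1wt and Empty, 65.5% between Ebf1-H240A and Empty, and 29.9% between the forms. It rose by 0.58 ± 0.19 and 1.59 ± 0.19, and by 1.01 ± 0.17 from Ebf1wt to Ebf1-H240A (limma adjusted p = 0.0196).

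Dll4, the ligand that Notch1 meets in the thymus, rose by 1.03 ± 0.18 and 0.72 ± 0.18 from a dim signal that was well above background on 6 arrays. Dlk1, a non-canonical Delta-like protein, differed by -0.35 ± 0.19 with Ebf1wt and fell by 0.95 ± 0.19 with Ebf1-H240A (limma adjusted p = 0.00595). Dlk2 was not called in any comparison, Dll3 was well above background on 0 arrays, and Jag1 lacked a value on Empty 2 and was not tested.

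Enzymes that modify and cut the receptor were all tested. Of the 14, 3 rose and 3 fell with Ebf1wt, leaving 8 uncalled (median 0.08). With Ebf1-H240A 6 rose and 3 fell, leaving 5 (median 0.22). Beside this, 38.4% of all tested genes were called with Ebf1wt and 44.6% with Ebf1-H240A. Of the Fringe glycosyltransferases, which tune the choice of ligand, Lfng and Mfng fell with both forms. Lfng fell by 1.15 ± 0.12 with Ebf1wt and by 0.37 ± 0.12 with Ebf1-H240A, and was 0.78 ± 0.10 higher with Ebf1-H240A than with Ebf1wt (limma adjusted p = 0.0101). Mfng fell by 0.76 ± 0.07 and 0.85 ± 0.07. Rfng, the third Fringe, differed by 0.08 and 0.06 and was not called. Poglut1, which adds O-glucose, fell by 0.30 ± 0.08 and 0.32 ± 0.08. Pofut1, which adds the O-fucose that Fringe extends, rose by 0.43 ± 0.06 and 0.24 ± 0.06. The gamma-secretase subunits Psen2 (0.47 and 0.64, both ± 0.09) and Aph1b (0.52 and 0.52, both ± 0.08) also rose, and Psenen rose with Ebf1-H240A (0.29 ± 0.07).

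The nuclear complex and its co-repressors, 19 genes, had medians of -0.06 and -0.03. With Ebf1wt 1 rose, 3 fell and 15 did not pass, and with Ebf1-H240A 5 rose, 5 fell and 9 did not pass. The shares called among all tested genes were 38.4% and 44.6%. Rbpj itself, the DNA-binding partner of all Notch receptors, fell by 0.25 ± 0.08 with Ebf1wt (limma adjusted p = 0.0405) and differed by -0.20 ± 0.08 with Ebf1-H240A (limma adjusted p = 0.0725). Maml1, the co-activator, differed by 0.12 ± 0.06 with Ebf1wt and rose by 0.30 ± 0.06 with Ebf1-H240A (limma adjusted p = 0.00701). The co-repressor gene Cir1 rose with both forms (0.54 and 0.66, both ± 0.10). Spen, another co-repressor gene, rose with Ebf1-H240A (0.58 ± 0.17), as did the acetyltransferase gene Kat2b (0.52 ± 0.10). Ctbp2 fell by 0.49 ± 0.08 and 1.05 ± 0.08, and was 0.56 ± 0.08 lower with Ebf1-H240A than with Ebf1wt (difference -0.56, limma adjusted p = 0.0104). Tle1, a Groucho-type co-repressor, fell by 0.44 ± 0.12 and 0.67 ± 0.12, and the deacetylase gene Hdac2 fell by 0.65 ± 0.16 with Ebf1-H240A.

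Dtx2 and Dtx4, relatives of Dtx1, also rose with both forms. In the list of turnover and other Deltex genes, 11 of 12 were tested. With each form 5 rose, 1 fell and 5 did not pass, at medians of 0.15 and 0.11. Calls were made for 38.4% of all tested genes with Ebf1wt and for 44.6% with Ebf1-H240A. Dtx2, another Deltex ubiquitin ligase, had a level of 10.52 ± 0.03 with Empty (SD, n = 2), 12.36 ± 0.10 with Ebf1wt (SD, n = 3) and 12.23 ± 0.07 with Ebf1-H240A (SD, n = 3). It rose by 1.84 ± 0.08 with Ebf1wt (limma adjusted p = 1.14e-05) and by 1.71 ± 0.08 with Ebf1-H240A (limma adjusted p = 1.29e-05). Dtx4 rose by 1.52 ± 0.14 and 1.30 ± 0.14. Numbl, a relative of the Notch antagonist Numb, rose by 0.50 ± 0.08 and 1.03 ± 0.08, and was 0.52 ± 0.07 higher with Ebf1-H240A (limma adjusted p = 0.0121). Fbxw7, which marks the intracellular domain for degradation, fell by 0.51 ± 0.06 and 0.39 ± 0.06. Of the 6 other Hes and Hey genes only Hes2 and Hes6 were tested, and Hes6 fell by 0.70 ± 0.09 and 0.77 ± 0.09.

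T-lineage genes that act downstream of Notch in the thymus fell while Notch1, Notch3 and Dtx1 rose. Of 10, 9 were tested, and with each form 7 fell, 0 rose and 2 did not pass. Among all tested genes, 21.3% were called lower with Ebf1wt and 23% with Ebf1-H240A. The median of the T-lineage list was -0.77 with Ebf1wt and -1.39 with Ebf1-H240A. Gata3, a T-cell transcription factor, read 9.73 and 9.65 with Empty and 7.85, 7.98 and 8.02 with Ebf1wt, while Ebf1-H240A gave 8.24, 8.27 and 8.29. It fell by 1.74 ± 0.07 and 1.42 ± 0.07, and was 0.32 ± 0.06 higher with Ebf1-H240A than with Ebf1wt (limma adjusted p = 0.0331). The T-cell surface and signalling genes Cd5 (-2.27 and -2.40, both ± 0.15), Cd3g (-1.77 and -1.64, both ± 0.10) and Lat (-1.39 and -2.08, both ± 0.10) fell. The surface genes Cd3e (-0.01 and -0.19) and Thy1 (0.29 and -0.12) were the ones not called. Lat, Lck and Il2ra were lower with Ebf1-H240A than with Ebf1wt, by -0.69, -0.64 and -0.63. Bcl11b, which commits cells to the T lineage, was well above background on 0 arrays.

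**Figure D3:**
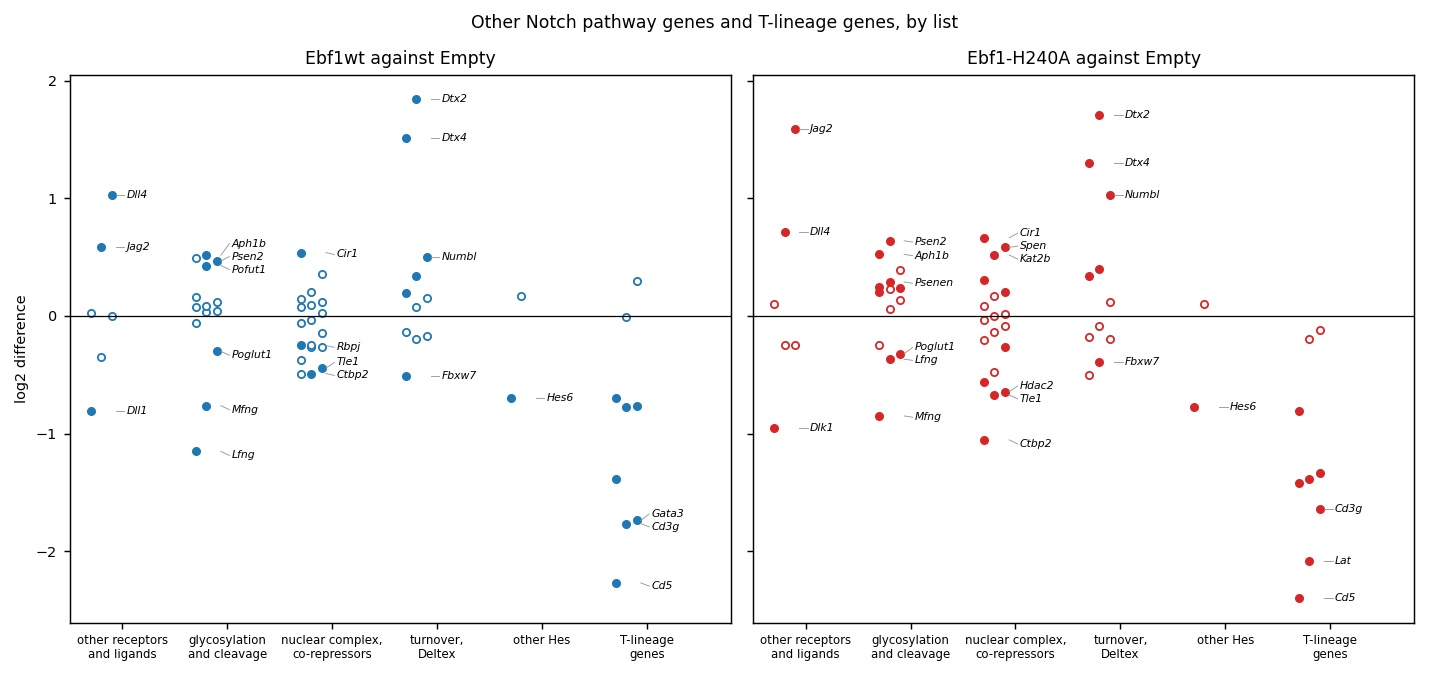
Each point is the limma log2 difference of 1 gene from Empty, by gene list, for Ebf1wt on the left and Ebf1-H240A on the right; filled points were called, and the names are those of up to 3 called genes with the largest rise and up to 3 with the largest fall in each list. The Deltex genes Dtx2 and Dtx4 stand above the other pathway genes with Ebf1wt, and 7 T-lineage genes are filled below 0 in each panel.

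Notch3 and Heyl are also typical of mural cells, which surround blood vessels and carry Pdgfrb, so markers of the OP9 feeder layer were read on the same arrays. The cells had been enriched for c-Kit before culture and sorted for GFP before RNA was made. How many feeder cells passed this sort was not tested. Pdgfrb rose by 1.54 ± 0.09 with Ebf1wt and 1.95 ± 0.09 with Ebf1-H240A, and was 0.41 ± 0.08 higher with Ebf1-H240A (limma adjusted p = 0.0306). Of the 20 stromal markers, 16 were tested, and 5 rose with Ebf1wt and 9 with Ebf1-H240A, while 0 fell. Their summed intensity was 10100 to 10610 with Empty, 12330 to 14800 with Ebf1wt and 14290 to 15520 with Ebf1-H240A. Without Acta2, the brightest of them, the sums were 1309 to 1537, 2450 to 2843 and 2918 to 3034. Pdgfrb was then the brightest, with mean log2 levels of 8.63, 10.17 and 10.59, so these sums lean on it. The median log2 level of the 16 markers on each array was 6.19 to 6.26 with Empty, 6.24 to 6.79 with Ebf1wt and 6.39 to 6.70 with Ebf1-H240A. Of the 20 markers, 14 were well above background on all 8 arrays, among them Col1a1, Col1a2, Col3a1, Sparc, Cxcl12, Timp3 and Pdgfrb, and 4 (Pdgfra, Lum, Postn and Thbs1) on 0 arrays. Sparc, Cxcl12 and Timp3 rose with both forms, by 0.62, 0.59 and 0.84 with Ebf1wt and by 0.55, 0.59 and 0.87 with Ebf1-H240A. The medians of the list were 0.56 and 0.52. Among all tested genes, 17.2% were called higher with Ebf1wt and 21.6% with Ebf1-H240A.

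Ebf1wt 3 had the highest stromal median of its group (6.79, against 6.24 and 6.29), and without it Notch3 rose by 2.38 and Dtx1 by 3.04 with Ebf1wt, and Heyl differed by 1.98 between the forms. All 3 remained called. The remaining Ebf1wt arrays had stromal sums of 12330 and 12350, still above both Empty arrays (10100 and 10610). Leaving out Ebf1wt 3 therefore does not test the share of stromal RNA. Endothelial cells also use Notch. Of 10 endothelial markers 5 were tested. With each form 2 rose and 0 fell, where 17.2% and 21.6% of all tested genes were called higher. The sums of these markers were 2008 to 2094 with Empty, 2660 to 2835 with Ebf1wt and 2770 to 3120 with Ebf1-H240A. Egfl7 was the brightest (mean log2 levels 10.6, 11.1 and 11.2), so the sums lean on it. The median log2 level of the 5 on each array was 6.1 to 6.5, 6.2 to 6.7 and 5.1 to 5.7. Cdh5, Tie1, Emcn and Sox18 were well above background on 0 arrays. Of 8 hepatocyte markers, Ahsg alone was tested, and it fell with both forms (-1.68 and -3.37, both ± 0.09). Alb, Afp, Apoa1, Apoa2, Ttr and Fgb were well above background on 0 arrays. The part of stromal or mural RNA in the Notch3 and Heyl levels was not tested.

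**Figure D4:**
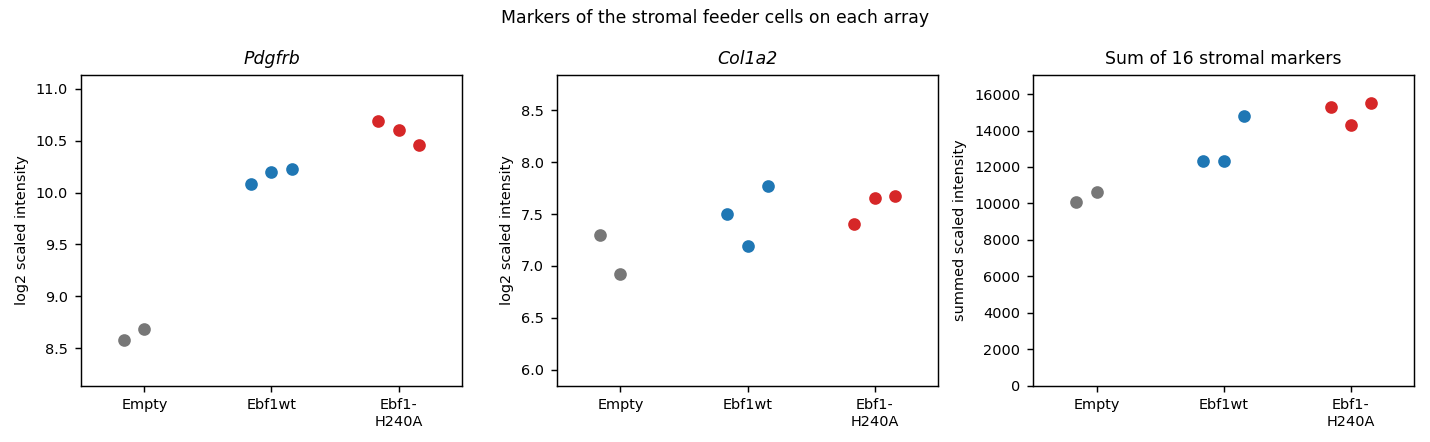
The left and middle panels plot the log2 scaled intensity of Pdgfrb and Col1a2 on each array, and the right panel the summed scaled intensity of the 16 tested stromal markers on a linear axis from 0. Pdgfrb is higher on all 6 arrays with an Ebf1 vector than on the Empty arrays, Col1a2 overlaps between Empty and Ebf1wt, and the sum is lowest with Empty (10100 and 10610).

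The genes whose pattern over the 8 arrays was most like each member's were found among 13056 named genes, by the root mean square difference of log2 levels after each gene was centred on its own mean. For Notch1 these were Ang (0.07) and Rasl12 (0.08), and for Notch3 they were Stac2 (0.09) and Nfe2 (0.09). Dtx1 was nearest to Gstm3 (0.11) and Gstm1 (0.12). Nrarp was nearest to Akap12 and Adgre5 (both 0.13), and Notch2 to Crk (0.06) and Nbeal1 (0.07). No other member was among these nearest genes. None is given for Heyl, which had no measured level with Empty.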

How the data were processed

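Cy3-labelled cRNA of 8 samples was hybridised to one-colour arrays. The submitters' processing notes name Agilent Feature Extraction 10.5.1.1 for the scans. The processed signal, per the file headers, is a linear intensity of each spot after background treatment and detrending, with a surrogate value where a spot is not above background. Raw mean and local background intensities and flags of 0 or 1 are deposited as well, and the annotation refers to mm9. A deposited value table holds log2 values of the same arrays (column medians 4.90 to 4.93). It runs in the direction of the scanner values (r = 0.971 to 0.979 per array), its centring and normalization are not given in the sources used here, and it served only as an alternative.

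From these files, 43379 non-control spots per array were scaled to a common 75th percentile, which ranged from 231.8 to 325.9 before scaling, with 0 saturated spots. Values under 1 were set to 1 before log2, spots flagged as outliers were dropped and a probe's spots were averaged. Probes well above background on 2 or more of 8 arrays were kept, which left 25007, of which 24 lacked a value on some array and were not fitted. Names were updated through a RefSeq table of GRCm38.p6 (27816 probes by accession, 5503 by symbol, 380 by older symbol, 7475 as in the files). Each gene is its brightest kept probe (10351 genes with 1 kept probe, 5958 with several).

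All 8 arrays entered limma 3.58.1 (R 4.3.3, lmFit and eBayes, no covariate, 5 residual degrees of freedom), checked on simulated data, and p-values were adjusted over all genes. The number of arrays limits the precision. Where no array of a group was well above background, a fold is a bound, from the mean over that group's arrays of the higher of the probe's own signal and the array's lowest signal well above background. From each list the text names up to 3 called genes a direction and comparison, besides all members, ligands, Notch4, the Fringe genes, Rbpj, Maml1 and Fbxw7, whatever their values. 1 gene of the nuclear complex list is not reported here and is left out of that list's counts. The nearest 2 genes are named for members the results turn on, other than Heyl. The members, the 12 lists and the rules were chosen with earlier results of these data known. Normalization, background correction, probe filter, floor, probe choice, slide, replicate block, samples in the fit and single arrays left out were varied, one choice at a time.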

Additional observations from a re-analysis of the deposited data

Results flagged for a closer look

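Of the 8 tested members, Heyl and Notch2 differed between Ebf1-H240A and Ebf1wt by a direct limma test of the 2 groups, which is also the test of whether their effects against the shared Empty arrays differ. Heyl was 2.01 ± 0.22 higher with Ebf1-H240A on the log2 scale (limma adjusted p = 0.00545), and all 3 Ebf1-H240A arrays lay above all 3 Ebf1wt arrays on both of its probes. Such groups did not overlap for 29.9% of all tested genes. Notch2 was 0.46 ± 0.09 higher (limma adjusted p = 0.0281), a call that its other 2 probes did not share. That call was lost under 12 of 20 other settings, among them the slide as a block (0.45, limma adjusted p = 0.0662), the replicate block (0.46, limma adjusted p = 0.102) and the omission of any single Ebf1wt or Ebf1-H240A array. Over the 20 settings its limma adjusted p ran from 0.00757 to 0.545. The cause of either difference was not tested.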

How the results depend on the processing

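With 20 other settings, the number of members called moved by over 1.5 times in few cases for the comparisons with Empty. When probes had to be well above background on all arrays, 3 were called with each form (Notch1, Notch3 and Dtx1), since Heyl, Nrarp and Hes1 were no longer among the 5 tested. Within slide 1 the count with Ebf1wt was 2, and within slide 2 the count with Ebf1-H240A was 3. All genes called within slides 1 and 2 numbered 133 and 398 with Ebf1wt, 1096 and 322 with Ebf1-H240A, and 0 and 0 between the forms in limma, where 1526 and 1600 had an unadjusted p under 0.05. No other tool was run, and within a slide 1 group alone gives the spread. Between the forms, members called fell to 1 (Heyl) without a filter, with the mean over probes, with the slide block and with the replicate block, and to 0 within each slide. All genes called between the forms were 641 with the deposited table, 338 without a filter and 646 with the slide as a block. Leaving out 1 array gave 5 to 6 members with either form against Empty, and 1 to 2 members and 365 to 839 genes between the forms. Deviations from the group mean had r = -0.33 to 0.19 for same-numbered arrays, and r from -0.45 to 0.42 for others. With 2 Empty arrays, their deviations mirror each other, so this check cannot decide whether the numbers pair the samples. The replicate block gave 5, 5 and 1 members and 4810, 5925 and 360 genes. Differences that changed sign were all uncalled. These were Hes5 with Ebf1wt (-0.0853 with the deposited table, -0.0754 within slide 1) and, between the forms, Notch1 (0.17 within slide 1, 0.0258 without Ebf1-H240A 3, range -0.12 to 0.0258 leaving out 1 array), Hes1 (0.18 within slide 1) and Notch3 (-0.0141 within slide 2). Dtx1 kept its call in both comparisons with Empty under all 20 settings, and Heyl under the 19 in which it was tested. The Notch2 difference with Ebf1wt was called with normexp (-0.32) and the deposited table (-0.33). With a floor of 16 all Hes1 values were at the floor and gave no value. The causes of these shifts were not tested.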
